A study of Mus musculus with 16 samples.

Results

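Actin nucleation genes of the WASP, WAVE and formin systems were followed in RNA sequencing libraries of neutrophils from mice with and without the oxygen sensor PHD2. The 10 genes were listed by symbol, with earlier results of these data known, and all 10 were found among the 49585 Ensembl identifiers counted in the 16 libraries. They are Was, Wipf1 and Hcls1, which act with or beside WASP, the WAVE complex genes Wasf2, Nckap1l, Cyfip1, Abi1 and Brk1, and the formins Diaph1 and Fmnl1.

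The cells, given as FACS-sorted neutrophils, came from the bones of C57BL/6 mice aged 8 to 12 weeks, with 4 libraries in each of 4 groups. P2KO libraries were labelled Vav:cre-PHD2f/f and P2H2KO libraries Vav:cre-PHD2/HIF2ff/ff, and each line had its own wild type controls, P2WT and P2H2WT. Vav:cre is a recombinase expressed across blood-forming cells, so the deletions were not limited to neutrophils, and whether the controls carried floxed alleles was not stated. PHD2 marks HIFα subunits for degradation, and the title of the series names HIF2α as a regulator of neutrophil motility. The comparisons therefore asked whether transcripts of the actin nucleation machinery differ without PHD2, and whether such a difference needs HIF2α.

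Actin nucleators start new filaments, and neutrophils crawl by pushing the membrane forward with them. WASP and WAVE proteins switch on the Arp2/3 complex, which grows branches from existing filaments. WASP answers to Cdc42. WAVE, held in a complex with the other subunits named above, answers to Rac. Formins build unbranched filaments and stay at their growing ends. In white blood cells several of these proteins are supplied by blood-specific members of their families, among them WASP, HEM1 (encoded by Nckap1l), FMNL1 and HS1 (encoded by Hcls1).

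Total counts ranged from 23450746 to 28601284 per library. The 24 pairs of libraries within groups all differed by more than sampling noise, and the smallest chi-square divided by its degrees of freedom was 10.6. No label said that each library came from another mouse, so p-values measure the spread between these libraries. Counts are summed over whole genes, so the deleted exons of the targeted genes were not seen and P2KO and P2H2KO stand for libraries labelled as deficient. Summed neutrophil markers (12 genes) were at 31027 to 81167 CPM, that is counts scaled to library size in the usual CPM unit, with all 12 above 1 CPM in each group. Markers of other cell types were present too: 9 erythroid genes summed to 25090 to 51030 CPM, 12 monocyte and macrophage genes to 2286 to 4498 CPM, 9 B cell genes to 205 to 729 CPM, 8 T and NK cell genes to 51.3 to 88.4 CPM and 5 megakaryocyte genes to 29.2 to 176 CPM. None of these lists had a gene at 0. The level of a gene in such a mixture cannot separate fewer cells of a type from less RNA per cell.

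All 10 genes were abundant. Their mean levels over the 16 libraries lay above those of 87.2% of the 14080 genes tested for the gene with the lowest CPM, Brk1, and of 98.2% for the highest, Fmnl1. The lowest count of any of them in any library was 2359 reads, for Cyfip1. Levels of different genes were compared per kilobase of exon, because long transcripts yield more reads. On that scale Hcls1 came first with 138 ± 22.3 CPM per kilobase (SD, n = 16). HS1, its product, binds Arp2/3 and holds branched filaments together. Brk1, the smallest WAVE complex subunit, followed with 114 ± 13.6 CPM per kilobase, and the formin Fmnl1 with 99.7 ± 15.9 CPM per kilobase. Was was at 68.7 ± 8.99, Nckap1l at 64.8 ± 10.4 and Diaph1 at 60.6 ± 9.01 CPM per kilobase, and these neighbours differed by less than the SD of either. Wasf2, which encodes WAVE2, was at 55.4 ± 4.48 CPM per kilobase. Abi1 (38.1 ± 3.64) and Wipf1 (37.2 ± 6.23 CPM per kilobase) could not be ordered by their spread, and Abi1 was the higher in 10 of 16 libraries. Cyfip1 was last with 10.9 ± 1.998 CPM per kilobase. Among the other neighbouring pairs the gene with the higher mean was also higher in 14 to 16 of the 16 libraries. With the longest transcript as the length in place of all exons, 6 of the 10 genes kept their rank.

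In the WASP arm each listed gene was the most abundant of its family. Was (ENSMUSG00000031165; GRCm38 chromosome X, 8081453 to 8090498, minus strand) stood 24.5 times higher per kilobase than Wasl, which encodes the widely expressed N-WASP. Wipf1 (chromosome 2, 73429610 to 73529734, minus strand) encodes WIP, the partner that keeps WASP stable and inactive, and stood 5.58 times higher than its relative Wipf2. Wipf3 had 0 to 4 counts per library. Hcls1 (chromosome 16, 36934983 to 36963212, plus strand) stood 48.1 times higher than Cttn, the gene of its relative cortactin.

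In the WAVE complex 1 family went the other way. Wasf2 (chromosome 4, 133130505 to 133199756, plus strand) had 7710 to 11077 counts per library, against 0 to 5 counts of Wasf1 and 0 to 1 of Wasf3. Nckap1l (chromosome 15, 103453794 to 103498810, plus strand) stood 23.3 times higher per kilobase than Nckap1, the gene used outside the blood. Abi1 (chromosome 2, 22940073 to 23040241, minus strand), whose product joins the complex to WAVE, stood 31.7 times above Abi2 and 7.05 times above Abi3. Cyfip1 (chromosome 7, 55841745 to 55932602, plus strand), the gene of the subunit that binds Rac, was below its relative. Cyfip2 was at 80.3 ± 11.7 CPM per kilobase (SD, n = 16), 7.39 times the level of Cyfip1, and it was the higher of the pair in 16 of 16 libraries. By longest transcript the ratio was 4.25. Brk1 (chromosome 6, 113604772 to 113616951, plus strand) has no relative in the lists used.

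Both formins led their families. Diaph1 (chromosome 18, 37843601 to 37935476, minus strand), the mDia1 gene, stood 12.5 times higher per kilobase than Diaph2 and 2.80 times higher than Diaph3. Fmnl1 (chromosome 11, 103171107 to 103198901, plus strand) stood 10.8 times above Fmnl2 and 10.1 times above Fmnl3. In every pair named here other than Cyfip1 and Cyfip2, the listed gene was higher than its relative in 16 of 16 libraries. Exons of Abi1 (4.81% of their bases), Cyfip1 (12.5%) and Fmnl1 (2.46%) overlap exons of genes on the other strand. Of the exon bases of Abi3, 75.8% overlap other genes. Whether the counting used strand, and how it treated reads over shared bases, is not given in the sources used here. Counts of these genes can therefore hold reads of their neighbours or lack reads of their own, and the ratio of Abi1 to Abi3 can be off in either direction.

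**Figure D1:**
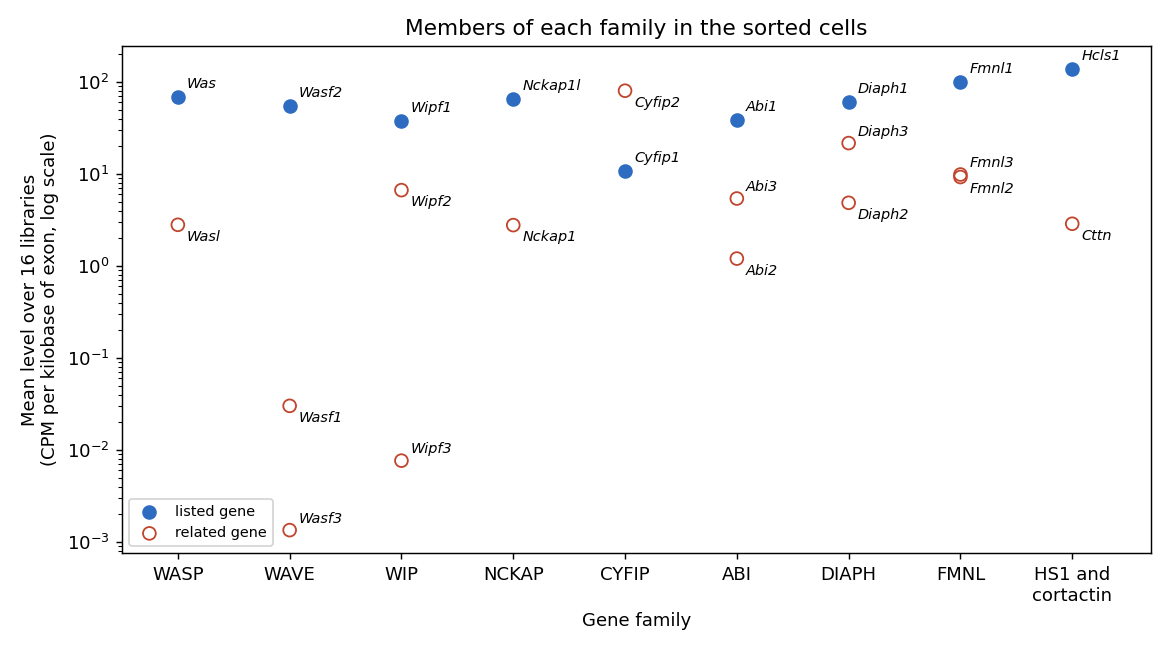
Mean level over 16 libraries of each listed gene (filled) and its relatives (open), in CPM per kilobase of exon on a log axis, by gene family. The listed gene is the highest of its family except in the CYFIP family, where Cyfip2 (80.3 CPM per kilobase) lies above Cyfip1 (10.9); Wasf1, Wasf3 and Wipf3 rest on 0 to 5 counts per library.

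Promoter sequence from RefSeq (GRCm38.p6) was used for 7 of the 10 genes, as 10 windows of 300 bases from 250 bases before to 50 bases after an annotated start. No window of Nckap1l, Cyfip1 or Diaph1 was used, so the counts of matches do not cover these genes. The 10 windows were searched on both strands for GGAAGT, a core bound by ETS factors such as the myeloid regulator PU.1. They were also searched for ACGTG and GCGTG, cores of the hypoxia response element that HIF factors bind. GGAAGT was found in windows of 6 of the 7 genes and in 9 of the 10 windows, and 23.8% of 32817 RefSeq windows held it. Wipf1 and Abi1 have more than 1 window, and those of Abi1 overlap, so the windows are not independent. The shares of all windows are per window and not per gene. ACGTG was found in 1 window, of Wipf1 (19.6% of all windows), and GCGTG in 4 windows, of Was, Brk1, Fmnl1 and Wipf1 (32.4% of all windows). At least 1 of the hypoxia response cores was in 5 of the 10 windows, against 43.8% of all windows. A match of letters is a description of the sequence and not a binding site. The 120 bases before the start of Was, Hcls1 and Brk1 are shown because they hold the different outcomes of that search. They read 5′ to 3′ on the strand of the gene, with matches of either kind, on either strand, in capitals.
Was (chrX:8090492-8090611, minus strand): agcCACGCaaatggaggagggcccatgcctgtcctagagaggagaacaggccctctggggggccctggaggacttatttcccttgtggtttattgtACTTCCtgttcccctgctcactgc
Hcls1 (chr16:36934863-36934982, plus strand): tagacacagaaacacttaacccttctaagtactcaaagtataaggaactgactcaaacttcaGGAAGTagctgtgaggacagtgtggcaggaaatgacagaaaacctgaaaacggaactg
Brk1 (chr6:113604652-113604771, plus strand): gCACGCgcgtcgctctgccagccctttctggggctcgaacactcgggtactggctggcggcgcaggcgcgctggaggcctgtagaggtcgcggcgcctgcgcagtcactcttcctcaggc
Was holds a match of each kind, Hcls1 an ETS core alone, and Brk1 the reverse complement of GCGTG with no GGAAGT in its window.

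In the PHD2 line no actin nucleation gene passed the test between deficient and control libraries. Was was at 141, 139.8, 188 and 128 CPM in P2KO replicates 1, 5, 6 and 9, and at 177, 152, 146 and 159 CPM in P2WT replicates 10, 3, 4 and 7. Replicate 6 lay above every control and the other 3 P2KO libraries below every control. The means were 149 ± 26.6 and 158 ± 13.3 CPM (SD, n = 4), and the log2 fold change was -0.077 (SE 0.13; adjusted p = 1 by the quasi-likelihood test of edgeR, with Benjamini-Hochberg adjustment over 13734 genes).

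WASP's partner Wipf1 and the Arp2/3 binder Hcls1 were also highest in replicate 6. Wipf1 was at 191, 170.5, 276 and 170.0 CPM in P2KO replicates 1, 5, 6 and 9, against 187 to 243 CPM in P2WT. Hcls1 was at 302, 279, 453 and 268 CPM in the same P2KO libraries, against 304 to 403 CPM in P2WT. In both genes P2KO replicate 6 was the highest of the 8 libraries of the line.

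Among the WAVE complex genes Wasf2 averaged 327 ± 26.5 CPM across P2KO and 344 ± 18.2 CPM across P2WT libraries (SD, n = 4). Nckap1l was at 326, 311, 489.6 and 298 CPM in P2KO replicates 1, 5, 6 and 9, against 333 to 409 CPM in P2WT, so that replicate 6 lay above and the other 3 below all controls. Cyfip1 was at 118, 109.8, 152 and 90.6 CPM in those P2KO libraries and at 116 to 134 CPM in P2WT. Abi1 was nearly level between the groups, at 147 ± 21.9 and 148 ± 9.41 CPM.

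Brk1 had the smallest p of the 10 in this comparison. Its levels were 116, 107, 123 and 101 CPM in P2KO replicates 1, 5, 6 and 9 and 125, 116, 114 and 124 CPM in P2WT replicates 10, 3, 4 and 7. The groups overlapped, and the log2 fold change of -0.088 (SE 0.079) had an unadjusted p of 0.295 and an adjusted p of 1 in edgeR.

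The formins spread most widely within P2KO. Fmnl1 was at 429, 412, 659 and 367 CPM in P2KO replicates 1, 5, 6 and 9 and at 572, 486, 440.0 and 477 CPM in P2WT replicates 10, 3, 4 and 7. Diaph1 had equal means, 372 ± 99.8 CPM for P2KO and 372 ± 35.5 CPM for P2WT (SD, n = 4), with P2KO libraries from 297 to 519 CPM. Their log2 fold changes were -0.069 (SE 0.18) and 0.014 (SE 0.17).

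Across the 10 genes, 8 log2 fold changes in P2KO were negative and 2 positive, with a median of -0.065 against 0.020 over all genes tested. None was called (0.0437% of all genes were, 6 of 13734), none had an unadjusted p under 0.05 (3.49% of genes did), and none had groups that did not overlap (2.25% of genes did). DESeq2 called none either. All 10 intervals of 95% lay within 1.5-fold in both directions, with the lowest bound at 0.715-fold (Fmnl1) and the highest at 1.32-fold (Diaph1). P2KO replicate 6 decided much of this. Without it all 10 log2 fold changes were negative with a median of -0.215, and 6 genes had an unadjusted p under 0.05 where 12.2% of all genes did; the smallest adjusted p was 0.406. Without P2KO replicate 9 or without P2WT replicate 10 the median was positive, at 0.025 and 0.0073, and without P2KO replicates 5 and 1 it was -0.0075 and -0.034. Without P2WT replicates 3, 4 and 7 it was -0.082, -0.103 and -0.059. The neutrophil marker sum was 72491 CPM in replicate 6 and 31027 to 44033 CPM in the other P2KO libraries. With that sum as a covariate, an alternative chosen after seeing the data, the median of the 10 genes was -0.048 with 2 values positive, and none had an unadjusted p under 0.05. All 12 monocyte and macrophage markers had negative log2 fold changes in this comparison, with sums of 2286 to 2944 CPM in P2KO and 2926 to 3573 CPM in P2WT. All 8 T and NK cell markers were negative too (median -0.21), and all 9 erythroid (median 0.067) and all 5 megakaryocyte markers (median 0.53) were positive. The part of these other cell types was not tested.

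**Figure D2:**
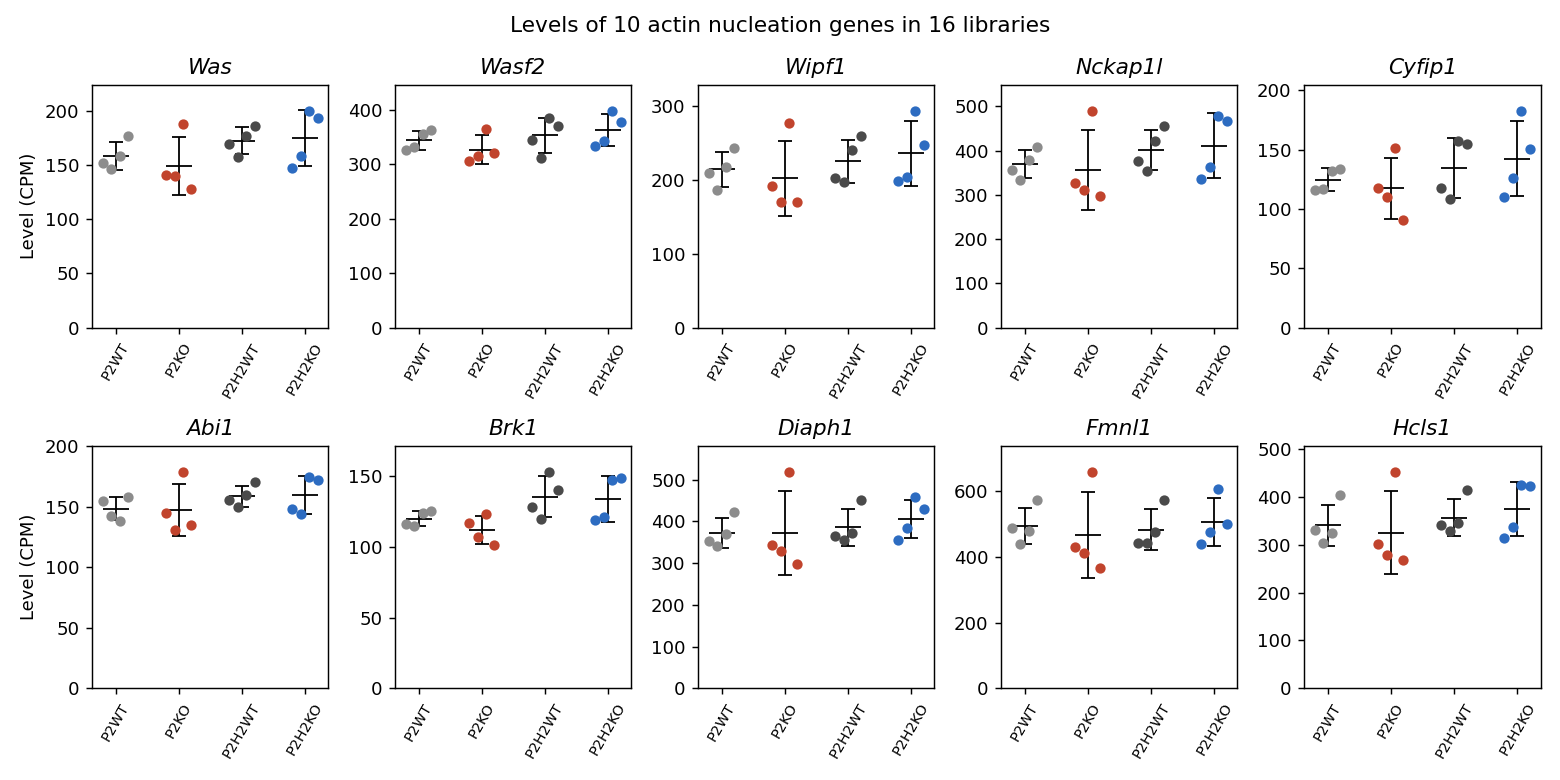
CPM of each gene in the 4 libraries of each group (points), with the group mean and SD (lines). Groups overlap in every panel, and the highest P2KO point of each panel is replicate 6, at 489.6 CPM in Nckap1l where the other 3 lie at 298 to 326 CPM.

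In the line lacking PHD2 and HIF2α together none of the 10 genes passed the test either. Was was at 148, 158, 199.9 and 193 CPM in P2H2KO replicates 11, 12, 15 and 17, and at 169, 157, 177 and 186 CPM in P2H2WT replicates 13, 14, 16 and 18. A pair of P2H2KO libraries lay above all controls and 1 below all of them. The log2 fold change was 0.021 (SE 0.11; adjusted p = 0.9999 in edgeR, over 13435 genes).

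Cyfip1 had the largest log2 fold change of the 10 here, 0.083 (SE 0.17). Its levels were 110.3, 126, 183 and 151 CPM in P2H2KO replicates 11, 12, 15 and 17 and 117, 109, 157 and 155 CPM in P2H2WT replicates 13, 14, 16 and 18. The groups overlapped, with 1 P2H2KO library above all controls. Other WAVE complex genes were closer still: Wasf2 averaged 363 ± 29.8 CPM across P2H2KO and 353 ± 32.4 CPM across P2H2WT (SD, n = 4), and Nckap1l at 411 ± 72.9 and 402 ± 45.9 CPM. Abi1 was at 160.0 ± 15.8 and 159 ± 8.73 CPM. Brk1 was the only gene of the 10 with a negative value, -0.015 (SE 0.11), at 134 ± 15.96 and 135 ± 14.5 CPM.

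Wipf1 averaged 236 ± 44.1 CPM across P2H2KO and 225 ± 29.7 CPM across P2H2WT, and Hcls1 at 374 ± 57.2 and 357 ± 38.5 CPM (SD, n = 4). The formins had log2 fold changes of 0.078 (Diaph1, SE 0.11) and 0.067 (Fmnl1, SE 0.12). Diaph1 was at 355, 385, 457 and 429.5 CPM in P2H2KO replicates 11, 12, 15 and 17 and at 364, 355, 372 and 451 CPM in P2H2WT replicates 13, 14, 16 and 18.

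Of the 10 log2 fold changes in P2H2KO, 9 were positive and 1 negative, with a median of 0.053 against 0.0011 over all genes tested. None was called by edgeR (0.0744% of genes were, 10 of 13435) or by DESeq2. None had an unadjusted p under 0.05 (2.63% of genes did) or groups without overlap (1.71% of genes). Every interval lay within 1.5-fold, the widest from 0.806-fold to 1.39-fold for Cyfip1. The sign was not stable. The median was -0.039 without P2H2KO replicate 15, -0.014 without P2H2WT replicate 14 and -0.025 with the m or f suffix of the library titles as a covariate, and 0.123 and 0.117 without P2H2KO replicate 11 and P2H2WT replicate 18. Without P2H2KO replicates 12 and 17 and P2H2WT replicates 13 and 16 it was 0.093, 0.016, 0.024 and 0.060. With the neutrophil marker sum as a covariate it was -0.0083, and 3 of the 10 values were positive. P2H2KO replicate 15 held the highest level in its group for 9 of the 10 genes and the lowest erythroid marker sum of all libraries, 25090 CPM. All 12 neutrophil (median 0.19) and all 6 early granule markers (median 0.199) had positive log2 fold changes in P2H2KO against P2H2WT, and all 9 erythroid (median -0.19) and all 9 B cell markers (median -0.37) negative ones. Of the 12 monocyte and macrophage markers 8 were negative and 4 positive (median -0.204). Among them 6 were lower with an unadjusted p under 0.05 in edgeR, as were 136 of all 13435 genes. Of the neutrophil markers 1 had such a p, and of the early granule, erythroid and B cell markers 0. The part of the other cell types in the values of the actin genes was not tested.

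**Figure D3:**
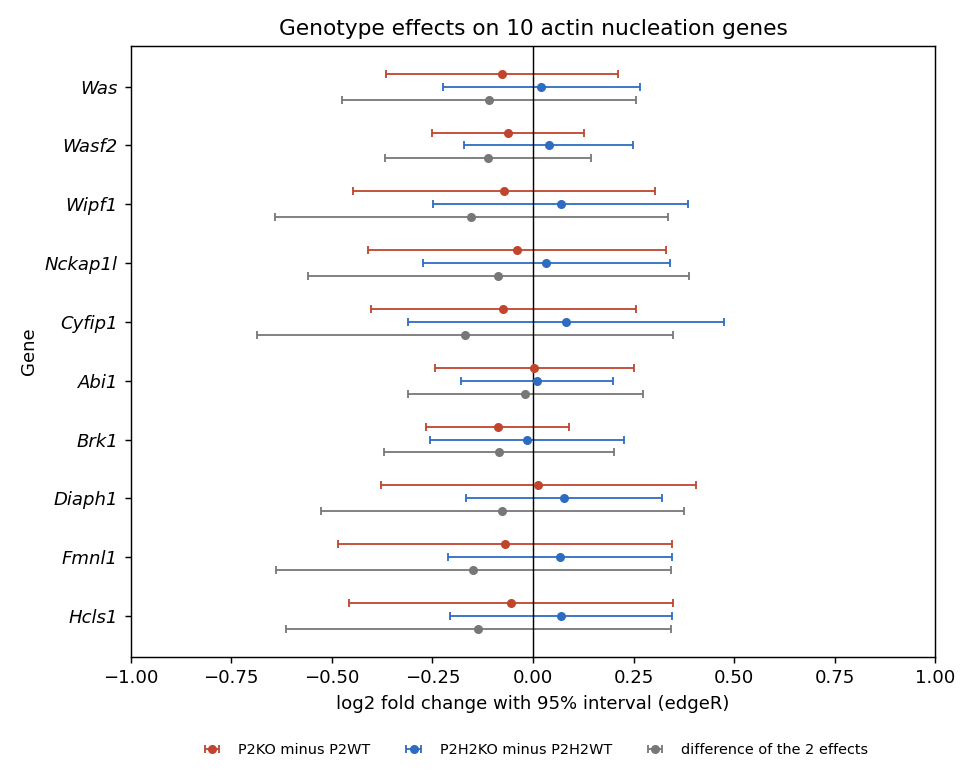
log2 fold changes of the 10 genes with 95% intervals from edgeR for P2KO minus P2WT, P2H2KO minus P2H2WT and the difference of these effects. Every interval spans 0, and those of the genotype comparisons stay within 1.5-fold.

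The difference between the effects, (P2KO minus P2WT) minus (P2H2KO minus P2H2WT), was tested directly in all 16 libraries. It was negative for all 10 genes, from -0.17 (Cyfip1, SE 0.24) to -0.019 (Abi1, SE 0.14), with a median of -0.11 against 0.0012 over the 14080 genes tested. Was had a difference of -0.11 (SE 0.17) and Wasf2, with the smallest unadjusted p of the 10 (0.364), one of -0.11 (SE 0.12). None was called (0% of genes were, by edgeR and by DESeq2), and none had an unadjusted p under 0.05 (1.51% of genes did). The smallest adjusted p was 0.9995. Only 6 of the 10 intervals lay within 1.5-fold, and the lowest bound, of Cyfip1, was 0.622-fold. The median was -0.279 without P2KO replicate 6, -0.034 without P2H2KO replicate 15, -0.047 without P2KO replicate 9, -0.058 without P2WT replicate 10, -0.062 without P2H2WT replicate 14 and -0.177 without P2H2KO replicate 11. Without any other single library it lay from -0.161 to -0.077. With the neutrophil marker sum as a covariate it was -0.024 with 3 of the 10 values positive, and with the suffix as a covariate -0.052 with 2 positive. In the same contrast all 12 neutrophil markers (median -0.204) and all 6 early granule markers (median -0.32) were negative, and all 9 B cell (median 0.41) and all 9 erythroid markers (median 0.27) were positive.

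The lines were also compared with each other. In the controls the log2 difference P2WT minus P2H2WT was negative for 9 of the 10 genes, with a median of -0.088 against -0.012 over 13593 genes, and Fmnl1 was the exception at 0.030 (SE 0.11). Brk1 was at 119.9 ± 5.44 CPM in P2WT and 135 ± 14.5 CPM in P2H2WT (SD, n = 4). Its difference of -0.18 (SE 0.081) had an unadjusted p of 0.0534 and an adjusted p of 0.448 in edgeR. None of the 10 was called (1.22% of genes were), none had an unadjusted p under 0.05 (11.4% of genes did), and none had groups without overlap (7.81% of genes). The median was -0.146 without P2WT replicate 10, -0.038 without P2H2WT replicate 18 and -0.054 without P2WT replicate 4. Without any other single library it lay from -0.131 to -0.069. With the neutrophil marker sum as a covariate it was -0.026, and 4 of the 10 values were positive. All 12 neutrophil markers (median -0.17) and all 9 erythroid markers (median -0.25) were negative in this comparison as well.

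Between the deficient groups, P2KO minus P2H2KO was negative for all 10, with a median of -0.23 against -0.023 over 13610 genes. Cyfip1 averaged 117 ± 25.5 CPM across P2KO and 142 ± 31.5 CPM across P2H2KO, a difference of -0.30 (SE 0.20), and Was at 149 ± 26.6 and 175 ± 25.7 CPM, a difference of -0.26 (SE 0.15). Brk1, at 112 ± 9.92 and 134 ± 15.96 CPM, had the smallest p, with -0.28 (SE 0.11), an unadjusted p of 0.0298 and an adjusted p of 0.423. Of the 10 genes none was called (0.279% of genes were), 1 had an unadjusted p under 0.05 (10.7% of genes did) and none had groups without overlap (6.92% of genes). Without P2KO replicate 6 all 10 had an unadjusted p under 0.05, where 22.3% of all genes did, with a median of -0.346 and a smallest adjusted p of 0.185. Without P2H2KO replicate 15 the median was -0.135, without P2H2KO replicate 17 -0.139 and without P2KO replicate 9 -0.152. Without P2H2KO replicates 11 and 12 it was -0.285 and -0.287, and without P2KO replicates 1 and 5 -0.2 and -0.163. All 12 neutrophil markers were negative in this comparison, with a median of -0.43, as were all 6 early granule (median -0.27) and all 8 T and NK cell markers (median -0.33), whereas all 9 B cell markers were positive (median 0.29). With the neutrophil marker sum as a covariate the median of the 10 actin genes was -0.0029 and 5 values were positive. The lines were counted in separate tables and share no sample, so line, table and any difference in handling cannot be told apart.

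Was lies on the X chromosome, and 10 libraries carried the suffix m and 6 the suffix f in their titles. The suffixes were not balanced over the groups: P2KO and P2H2WT each had 3 m and 1 f, and P2WT and P2H2KO had 2 of each. With terms for the groups, the log2 difference f minus m of Was was 0.11 (SE 0.092; adjusted p = 0.549 in edgeR over 14080 genes). The 9 genes on other chromosomes were also positive, from 0.030 (Diaph1) to 0.18 (Cyfip1), and the median of the 10 was 0.11. Wasf2 had the smallest p, with 0.12 (SE 0.057; unadjusted p = 0.0489, adjusted p = 0.284). None of the 10 was called (0.163% of genes were), and 1 had an unadjusted p under 0.05 (17.5% of genes did). Without P2KO replicate 9, the f library of P2KO, Brk1 was called with an adjusted p of 0.0409 in edgeR, beside 1066 of 14237 genes. In that fit 6 of the 10 had an unadjusted p under 0.05, where 30.7% of all genes did. Without P2KO replicate 6 the count of the 10 was 5, beside 27.2% of all genes. All 12 monocyte and macrophage markers were positive (median 0.16) and all 9 erythroid markers negative (median -0.24) for the suffix, and with the neutrophil marker sum as a covariate the median of the 10 actin genes was 0.080 with 8 positive.

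Within groups the same libraries were high or low for most of the 10 genes. P2KO replicate 6 and P2WT replicate 10 held the highest level of their group for 10 of 10 genes, P2H2KO replicate 15 for 9 and P2H2WT replicate 18 for 7. The lowest level was in P2KO replicate 9 for 8 genes, in P2WT replicate 4 for 7, and in P2H2KO replicate 11 and P2H2WT replicate 14 for 9 each. The spread within groups, as a pooled SD of log2(CPM + 1), had a median of 0.227 over the 10 genes and 0.161 over all genes tested. Cyfip1 varied most, at 0.263, and Wasf2 least, at 0.112.

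Taken relative to the mean of the other 9 genes in the same library, the spread was smaller for 9 of the 10 genes, with a median SD of 0.0847. The ratio of Was to the others was the steadiest, with an SD of 0.040 against 0.179 for its level. Wasf2 was the exception, with an SD of 0.120 for the ratio and 0.112 for the level. This ratio takes out any difference that the 10 genes share, so it cannot show a genotype effect common to them. It shows only how each gene differed from the others. On it Was differed by -0.020 between P2KO and P2WT and by -0.032 between P2H2KO and P2H2WT. The largest value of either comparison was 0.071, for Abi1 in P2KO.

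Levels of the 10 genes were set beside the marker sums of the same libraries. In P2KO, P2WT and P2H2WT the library in which most of the 10 genes peaked (replicates 6, 10 and 18) also had the highest neutrophil marker sum of its group, at 72491, 61224 and 68942 CPM. In P2H2KO replicate 15, where 9 genes peaked, had 65388 CPM and replicate 17 had 81167 CPM, above the 42864 and 49782 CPM of the other libraries. P2H2WT replicate 16, highest for Wasf2, Cyfip1 and Brk1, had a neutrophil marker sum of 47468 CPM and the highest monocyte and macrophage sum of its group, 4257 CPM. Where most genes were lowest, the neutrophil marker sum was the lowest of its group in P2KO replicate 9 and P2H2WT replicate 14. It was not in P2WT replicate 4 or P2H2KO replicate 11. The erythroid marker sum was the lowest of its group in P2KO replicate 6, P2H2KO replicate 15 and P2H2WT replicate 18. In P2WT replicate 10 it was not. It was the highest in P2WT replicate 4, P2H2KO replicate 11 and P2H2WT replicate 14, but not in P2KO replicate 9. The part of cell content in these levels was not tested.

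**Figure D4:**
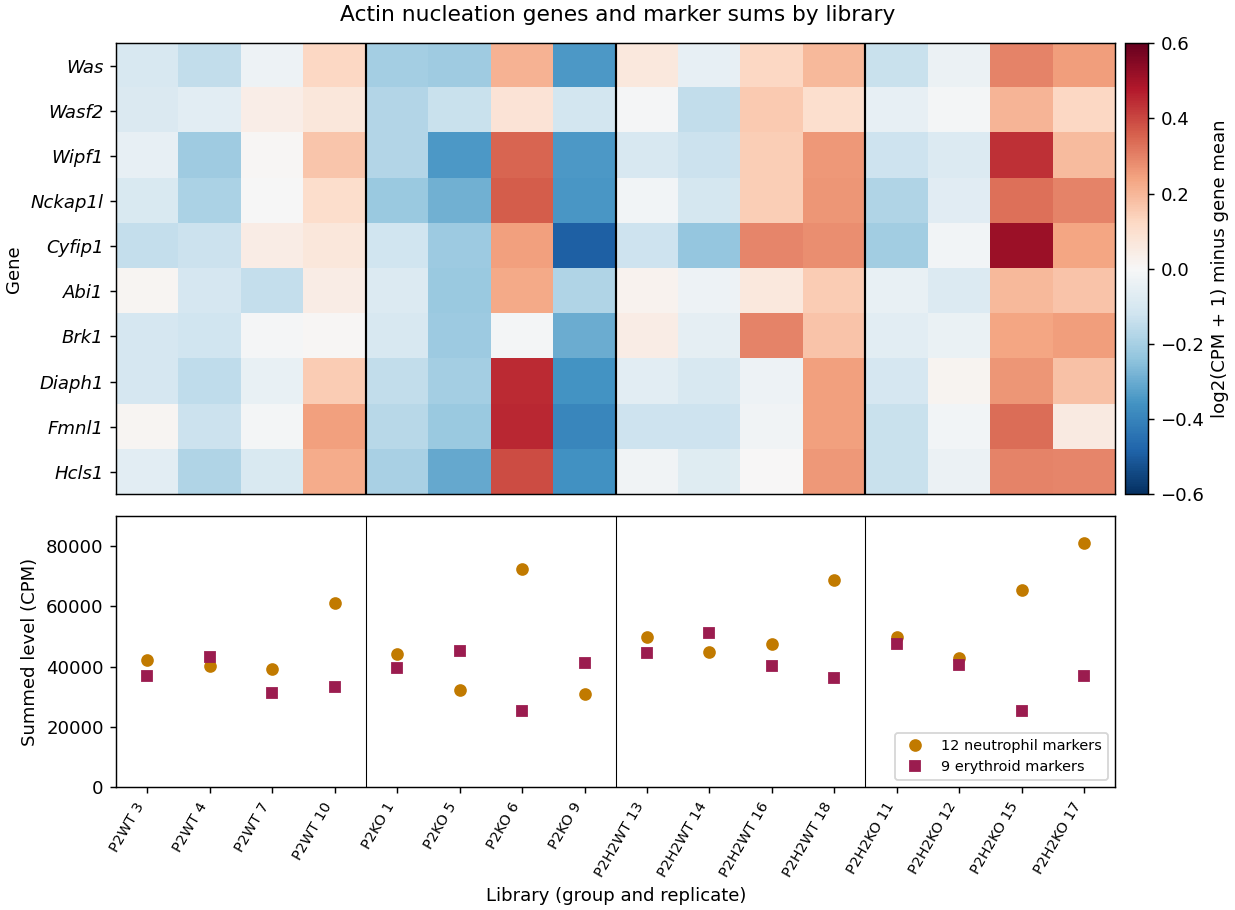
Top, log2(CPM + 1) of each gene minus its mean over 16 libraries (colour), for each library by group and replicate; bottom, the summed CPM of 12 neutrophil and 9 erythroid markers in the same libraries. Each row is centred on its own mean, so colour shows only differences between libraries. P2KO replicate 6, P2WT replicate 10, P2H2KO replicates 15 and 17 and P2H2WT replicate 18 lie above the mean for nearly all genes. P2KO replicates 1, 5 and 9, P2WT replicate 4, P2H2KO replicate 11 and P2H2WT replicate 14 lie below it for every gene.

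The genes whose levels followed those of Was most closely were sought among 3366 genes with a mean of at least 5 CPM and a spread at least that of Was. By the root mean square difference of centred log2 levels over the 16 libraries these were Gsdmd (0.0451), Capzb (0.0456) and Sgpl1 (0.0499). Gsdmd encodes the pore-forming protein gasdermin D, Capzb a subunit of the protein that caps the growing ends of actin filaments, and Sgpl1 the lyase that breaks down sphingosine 1-phosphate.

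Other genes of the actin nucleation pathway were taken from 3 lists. Of 17 other WASP and WAVE family genes and partners 14 could be tested, of 14 other formins and partners 13 in the PHD2 line and 12 in the other, and of 15 Arp2/3 subunits and inhibitors 14. No gene of these lists was called in any of the 6 comparisons by edgeR.

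In P2KO against P2WT a single gene of these lists had an unadjusted p under 0.05, where 3.49% of all genes tested did. Wasl averaged 19.2 ± 0.850 CPM across P2KO and 17.1 ± 0.816 CPM across P2WT (SD, n = 4), and the groups, at 18.4 to 20.1 and 16.04 to 17.9 CPM, did not overlap. Of all genes tested 2.25% had groups that did not overlap. Its log2 fold change was 0.17 (SE 0.066; unadjusted p = 0.0267, adjusted p = 1 in edgeR). That of Was, -0.077 (SE 0.13), had an interval that spanned 0. The list medians were 0.050 for the WASP and WAVE relatives, 0.026 for the other formins and -0.031 for Arp2/3.

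In P2H2KO against P2H2WT none of the 3 lists had a gene with an unadjusted p under 0.05. Positive values were found for 12 of the 14 WASP and WAVE relatives, 6 of the 12 other formins and 9 of the 14 Arp2/3 genes, with list medians of 0.037, 0.0069 and 0.038. In the difference of the effects 8 of the 14 WASP and WAVE relatives, 6 of the 13 other formins and 12 of the 14 Arp2/3 genes were negative, with medians of -0.019, 0.0074 and -0.089, and none of the 3 lists had a gene with an unadjusted p under 0.05.

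Between the lines no gene of these lists was called, and those with small p values included 3 named here. An unadjusted p under 0.05 in edgeR was found for 11.4% of all genes between controls and 10.7% between deficient groups. The counts between controls were 2 of 14 WASP and WAVE relatives, 1 of 13 other formins and 1 of 14 Arp2/3 genes. Between deficient groups 3 of the 13 other formins had such a p, all higher in P2KO, Daam2 among them. Of the WASP and WAVE relatives 1 was higher and 1 lower, and of the Arp2/3 genes there were 0. Daam2, a formin gene, was at 0.802 ± 0.105 CPM in P2WT and 0.311 ± 0.192 CPM in P2H2WT (SD, n = 4), a log2 difference of 1.33 (SE 0.37; adjusted p = 0.161 in edgeR), and it was 1.31 (SE 0.44; adjusted p = 0.397) higher in P2KO than in P2H2KO. Neither pair of groups overlapped, as was so for 7.81% of all genes between controls and 6.92% between deficient groups. Levels of Daam2 were very low, at 0.121 to 0.573 CPM in P2H2WT and 0.711 to 0.939 CPM in P2WT. Jmy, whose product nucleates actin with Arp2/3 and alone, was at 55.0 ± 5.33 CPM in P2WT and 45.1 ± 4.08 CPM in P2H2WT, a difference of 0.28 (SE 0.090; adjusted p = 0.244). Arpc4, an Arp2/3 subunit gene, was at 243 ± 18.2 and 289 ± 31.6 CPM in the same groups, a difference of -0.25 (SE 0.089; adjusted p = 0.298), with 12.2% of its exon bases shared with Ttll3.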

How the data were processed

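The authors deposited raw read counts per gene for 16 libraries in 2 tables, 8 libraries each, per the file headers. HTSeq and the build mm10 are named, with no role or version, in the submitters' processing notes; the aligner, annotation and strand setting are not given in the sources used here. Symbols, coordinates and exon lengths came from GENCODE M21 (GRCm38); 259 identifiers without a symbol held 0.00714% of counts. Promoters came from RefSeq.

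Genes were filtered with filterByExpr in edgeR 4.0.16 (R 4.3.3), scaled with TMM and tested with glmQLFit (robust) and glmQLFTest, two-sided, with Benjamini-Hochberg adjustment over all genes tested and a threshold of 0.05. Each pairwise comparison was fitted on its own 8 libraries, and the difference of effects and the suffix on all 16. CPM was computed here from the deposited counts. The library size, over genes that passed the filter, was multiplied by the TMM factor, 0.9365 to 1.064 over the 16 libraries. Standard errors came from the F statistic. The procedure was tested on simulated data. Alternatives were other size factors and filters, DESeq2 1.42.0, covariates, 1 fit of 16 libraries and leaving out each library.

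The 10 genes and the lists were chosen with earlier results of these data known. All 10 were to be described; of other lists, genes with an adjusted p under 0.05, otherwise up to 2 with the smallest p, were named, and for Was the 3 genes of most similar pattern. A further list is not reported here.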

Additional observations from a re-analysis of the deposited data

Results flagged for a closer look

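Of 40 sets of 4 libraries (10 genes in 4 groups), 1 held a library whose gap to its nearest neighbour took up more of the range than Dixon's 95% limit allows, and chance gives about 1 in 20. Nckap1l was at 489.6 CPM in P2KO replicate 6, against 298 to 326 CPM in the other 3 P2KO libraries, a gap of 0.852 of the range. The neutrophil marker sum of that library was 72491 CPM, against 31027 to 44033 CPM in the others, and its part in the value was not tested.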

How the results depend on the processing

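Under every alternative run, 0 of the 10 genes were called in the 5 comparisons of groups. For the f against m suffix the count was 0 to 1 with single libraries left out, 1 being Brk1 without P2KO replicate 9. Log2 fold changes were small enough to change sign: 24 of 160 values under alternatives had the other sign in P2KO against P2WT, 31 of 160 in P2H2KO against P2H2WT, 12 of 230 in the difference of effects, 8 of 160 between controls, 5 of 160 between deficient groups and 8 of 200 for the suffix. With the neutrophil marker sum as a covariate 4 values between deficient groups moved by more than the replicate SD, and the cause was not tested. Over all genes the number called was 6 (4 to 23 under alternatives) in P2KO against P2WT, 10 (6 to 42) in P2H2KO against P2H2WT, 166 (32 to 419) between controls, 38 (11 to 255) between deficient groups and 23 (9 to 1066) for the suffix. DESeq2 gave the highest of these counts except for the suffix. No paired analysis was possible because the groups share no replicate number. With at least 2359 counts per gene and library, counting error was small beside the spread between libraries.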
